A study of Mus musculus with 4 samples.

Results

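Mucous neck cells line the middle of the glands of the stomach and secrete the gel-forming mucin Muc6 together with the trefoil peptide Tff2. Spasmolytic polypeptide-expressing metaplasia is a lineage that appears in the glandular stomach after injury or loss of parietal cells, is named after Tff2 (spasmolytic polypeptide), and shares much of the neck cell programme. Gkn3, Aqp5, Cftr, Clu, Wfdc2 and Dmbt1 have each been used as markers of neck cells, of this metaplasia or of both. The gene set described here holds these 8 genes, listed by symbol. Array probes were assigned to them through the RefSeq accession of each probe, which gave 8 probes for 7 genes of 41174 probes in all. No probe matched Muc6 in this way, so Muc6 was not analysed here. All 7 other genes passed the filter on dim signal and were among the 21045 genes tested.

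The RNA came from gastric tumours that K19-Wnt1/C2mE mice carried at 30 weeks of age. In these animals the keratin 19 promoter drives Wnt1, cyclooxygenase-2 (Ptgs2) and microsomal prostaglandin E synthase (Ptges) in stomach epithelium. After 3 h of digestion, cells without lineage markers (Lin-) were parted into Lin- CD44+ cells (2 arrays) and Lin- CD44- cells (2 arrays), where CD44 is a receptor for hyaluronan. All 4 samples carried the transgenes and none was from normal stomach, so differences are between sorted fractions of transgenic tumours. The labels name neither the lineage markers nor the number of mice, and do not say that replicates came from separate animals, so the spread behind each p-value may be technical only.

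The probe signals had a 75th percentile of 244 and 493 (CD44+ arrays) and of 406 and 527 (CD44- arrays), and levels below are log2 signals relative to it. No gene spot was saturated. Limma's test with Benjamini-Hochberg adjustment called 84 of 21045 genes (0.399%) at an adjusted p under 0.05, 5 of them higher (0.0238%) and 79 lower (0.375%) in CD44+ cells, and with each array scaled to its median it called 748, 121 higher and 627 lower. Cd44 itself, the sort marker, stood at 6.31 and 6.54 on the CD44+ arrays and at 4.26 and 5.11 on the CD44- arrays. These levels are from its brightest probe (log2 difference 1.74 ± 0.49, SE, adjusted p = 0.199 by limma). Other tested Cd44 probes differed by 1.40 and 2.27. The summed level of 8 epithelial markers was 2182 and 1560 on the CD44+ arrays, against 1983 and 851 on the CD44- arrays, in units of the 75th percentile. Markers of other cells lay mostly on the CD44- side. Summed levels were 7.78 and 42.9 on the CD44+ arrays, against 68.2 and 456 on the CD44- arrays for 8 fibroblast markers, 0.64 and 1.26 against 3.93 and 67.0 for 6 endothelial markers, 3.59 and 5.16 against 366 and 782 for 8 enteroendocrine markers, and 14.7 and 2.09 against 208 and 356 for 7 squamous markers. Of these lists, 7 enteroendocrine genes and 1 squamous gene, Krtdap, were called lower in CD44+ cells. The squamous genes Ivl and Lor went the other way, with log2 differences of 1.60 (without overlap) and 0.19 (with overlap), and neither was called. For 8 leukocyte markers the sums were 6.85 and 6.08 against 5.74 and 4.19, and Cd53, a tetraspanin of white blood cells, was called higher, at least 9.06-fold (adjusted p = 0.0241 by limma). Neither CD44- array had Cd53 well above background, so that fold is against the dimmest signals that were. Of the 8 leukocyte markers, 3 were higher and 3 lower in CD44+ cells without overlap, beside 22.4% and 17.2% of all genes. Those higher were Cd53, Coro1a (log2 difference 0.52) and Lcp1 (0.47). Those lower were Tyrobp (-1.74), Laptm5 (-1.48) and Ptprc (-0.66). Each value is from the gene's brightest probe. Other tested probes differed by -0.19 for Coro1a, 0.12 for Lcp1 and -1.50 for Laptm5. Ptprc probes that did not pass the filter on dim signal differed by 0.26 and 0.81. The part of these other cells in the results on the neck and metaplasia genes was not tested. In sorted bulk samples, fewer cells of a type and less RNA per cell cannot be told apart.

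The neck and metaplasia genes divided by the size of their difference into a group of 3 (Gkn3, Cftr and Aqp5), whose signal was 5.11 to 8.47-fold higher in CD44+ cells, and a group of 4 (Tff2, Clu, Wfdc2 and Dmbt1) that lay within 1.11 to 1.81-fold. This division was made after the values were seen. All 7 log2 differences were above 0, as were those of 60.6% of all genes tested, and their median was 0.86 beside 0.16 for all genes. The groups did not overlap, with CD44+ cells higher, for 5 of the 7 and for 22.4% of all genes. A difference of at least 2-fold in that direction without overlap was found for 3 of the 7 and for 3.8% of all genes, beside 9.66% of all genes in the other direction and none of the 7. None of the 7 passed limma's test over all genes, of which 0.399% were called in either direction. With each array scaled to its median, Gkn3, Cftr and Aqp5 passed, as they also did with normexp background correction, from the authors' value table and with the replicate number as a block. At an unadjusted p under 0.05 there were 3 of the 7, all higher in CD44+ cells, beside 2.86% of all genes on that side and 7.9% on the other. The 8 genes were chosen with earlier results of these data known, so these counts describe them and are no test of the set.

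**Figure D1:**
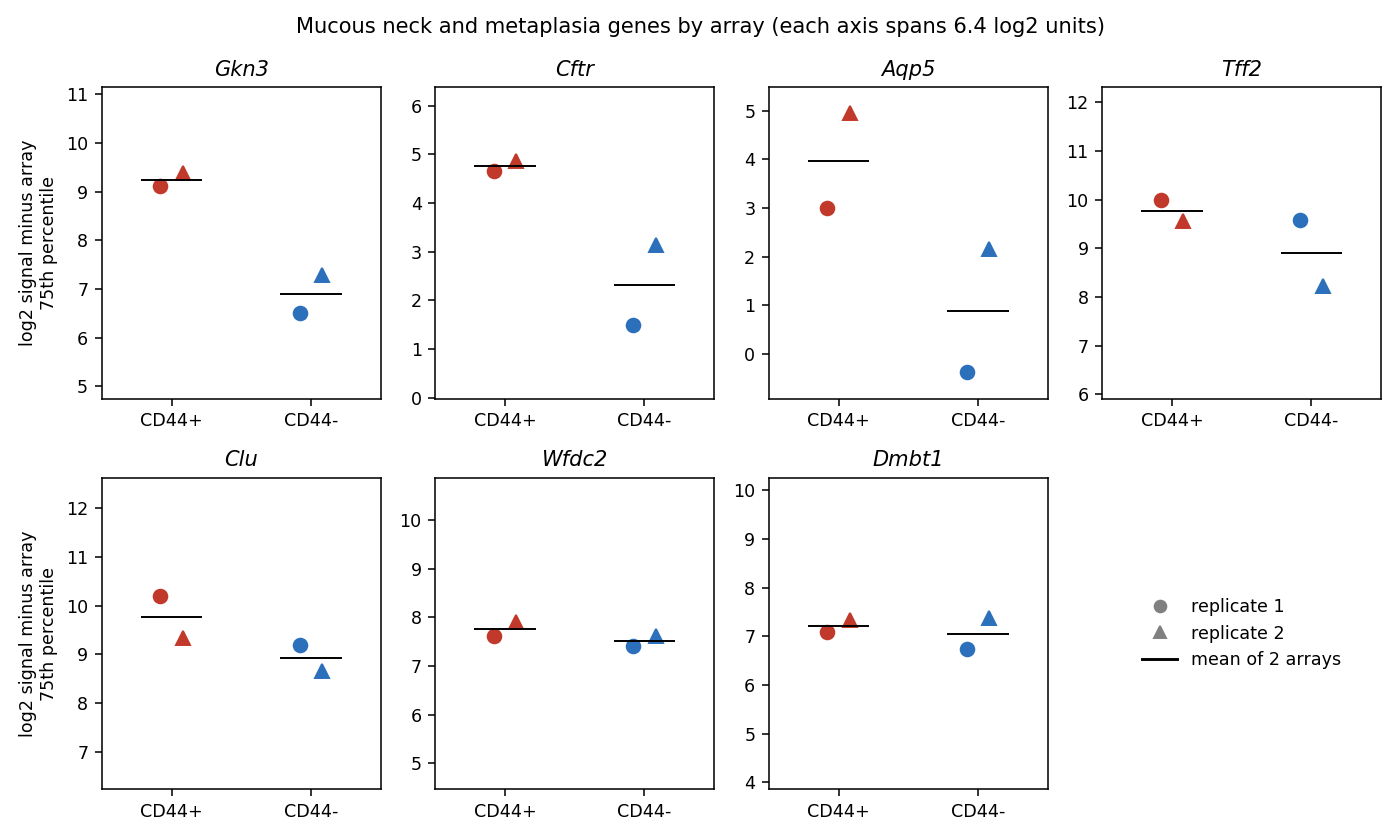
Level of each of the 7 genes on each array, as log2 signal minus the array's 75th percentile (vertical axis, each spanning the same number of log2 units), for CD44+ and CD44- cells, with circles for replicate 1, triangles for replicate 2 and a line at the mean of the 2 arrays. For Gkn3, Cftr and Aqp5 both CD44+ arrays lie above both CD44- arrays, while Dmbt1 and Tff2 overlap. Of Gkn3, Cftr and Aqp5, only Gkn3 has a gap between groups that exceeds the gap between arrays of a group.

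Gkn3 (gastrokine 3), a secreted stomach peptide of mucous neck cells in the mouse, had processed signals of 135286 and 329072 on the CD44+ arrays, against 37026 and 82110 on the CD44- arrays. On the log2 scale this was 9.12 and 9.38 in CD44+ cells and 6.51 and 7.28 in CD44- cells. Both CD44+ arrays lay above both CD44- arrays by more than either group's spread. The means were 9.25 ± 0.19 in CD44+ cells and 6.90 ± 0.55 in CD44- cells (SD, n = 2 arrays each), a difference of 2.35 ± 0.48 (SE, 5.11-fold, 95% interval 1.25 to 3.46), with an adjusted p of 0.110 from limma. Gkn3 held the smallest unadjusted p of the 7, at 0.00119.

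Cftr, the chloride and bicarbonate channel of many secretory epithelia, was measured by a probe printed 10 times on each array. Repeat spots share 1 amplification, labelling and hybridization, so their spread is that of spots only. The mean signal over these spots was 6154 and 14414 on the CD44+ arrays, against 1135 and 4603 on the CD44- arrays. The coefficient of variation among the 10 spots of an array was between 1.25% and 3.41%, or an SD of at most 0.050 on the log2 scale. Levels were 4.66 and 4.87 in CD44+ cells and 1.48 and 3.13 in CD44- cells. The 2 CD44+ arrays lay 0.21 apart and the 2 CD44- arrays 1.65 apart. The difference was 2.46 ± 0.60 (SE, 5.49-fold, 95% interval 1.07 to 3.84, adjusted p = 0.155 by limma). A second Cftr probe, with 1 spot per array, was well above background only on the second array of each group and was not tested. Its levels there were -3.31 on the CD44+ array and -4.57 on the CD44- array, the same direction as the first probe.

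**Figure D2:**
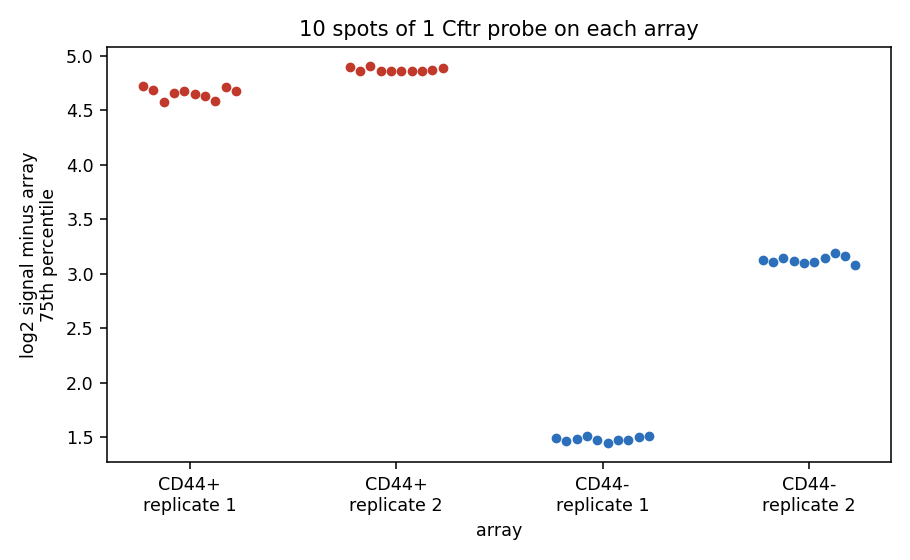
Level of each of the 10 spots of 1 Cftr probe on each of the 4 arrays, as log2 signal minus the array's 75th percentile (vertical axis), CD44+ arrays in red and CD44- arrays in blue. Spots of an array lie close together, with an SD of at most 0.050, and the 2 CD44- arrays lie 1.65 apart.

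Aqp5, a water channel of secretory glands, had the largest difference of the 7 and also the widest spread. Signals were 1956 and 15176 on the CD44+ arrays, against 313 and 2358 on the CD44- arrays, or 3.00 and 4.95 against -0.38 and 2.16 on the log2 scale. The groups did not overlap, but the arrays of a group lay up to 2.54 apart. The pooled SD of 1.60 exceeded that of 97.7% of all genes tested, where the median was 0.44. The difference was 3.08 ± 0.91 (SE, 8.47-fold, 95% interval 0.99 to 5.18, adjusted p = 0.224 by limma). Leaving out CD44- replicate 1 gave 1.81 and leaving out CD44- replicate 2 gave 4.35, with 4.05 and 2.11 when CD44+ replicate 1 or 2 was left out. None of the 7 passed in the other 3 of these fits, while without CD44- replicate 2 Aqp5, Gkn3 and Cftr all passed (adjusted p = 6.29e-06, 0.00801 and 0.000694 by limma). That fit has 1 CD44- array, assumed to vary like the CD44+ arrays, so the CD44- gaps of 2.54 for Aqp5 and 1.65 for Cftr do not enter its spread.

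The promoters of these 3 genes are shown because the genes had the largest differences, with that of Wfdc2 as a gene of the same set whose groups lay close together. Each run is the 250 bases before the RefSeq transcription start in GRCm38.p6, read 5′ to 3′ on the strand of the gene, at chr6:87388936-87389185 (minus strand) for Gkn3, chr6:18170437-18170686 (plus strand) for Cftr, chr15:99590778-99591027 (plus strand) for Aqp5 and chr2:164562465-164562714 (plus strand, 1 of 2 starts) for Wfdc2. Capitals mark the motif matches named after the runs.
Gkn3: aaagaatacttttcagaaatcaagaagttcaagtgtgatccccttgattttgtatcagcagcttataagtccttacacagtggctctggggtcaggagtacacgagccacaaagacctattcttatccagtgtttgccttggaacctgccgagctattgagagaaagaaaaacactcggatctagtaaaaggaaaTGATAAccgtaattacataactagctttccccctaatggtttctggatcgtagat
Cftr: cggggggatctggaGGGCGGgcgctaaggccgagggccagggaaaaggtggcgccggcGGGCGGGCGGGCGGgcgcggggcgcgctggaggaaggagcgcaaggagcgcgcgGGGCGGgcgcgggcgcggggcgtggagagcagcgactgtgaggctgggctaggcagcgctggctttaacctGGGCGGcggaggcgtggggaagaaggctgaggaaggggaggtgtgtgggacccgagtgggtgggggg
Aqp5: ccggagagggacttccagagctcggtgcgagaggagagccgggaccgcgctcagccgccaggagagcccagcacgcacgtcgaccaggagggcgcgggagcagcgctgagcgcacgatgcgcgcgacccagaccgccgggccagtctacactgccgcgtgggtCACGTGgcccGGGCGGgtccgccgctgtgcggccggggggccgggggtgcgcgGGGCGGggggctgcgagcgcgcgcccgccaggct
Wfdc2: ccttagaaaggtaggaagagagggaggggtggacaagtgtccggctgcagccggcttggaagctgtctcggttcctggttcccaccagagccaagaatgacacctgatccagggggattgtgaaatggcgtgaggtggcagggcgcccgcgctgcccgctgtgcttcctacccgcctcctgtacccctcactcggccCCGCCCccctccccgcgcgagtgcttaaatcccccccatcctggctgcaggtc
Base composition differed among the 3, with 40.8% G and C for Gkn3, 76.4% for Cftr and 78.4% for Aqp5, against 64.8% for Wfdc2 and a median of 52.4% over the 32851 promoters of the same length in the table. Both strands were searched for 10 motifs, chosen with the sequences in view, and promoters are counted once per motif. The GC box GGGCGG occurred in Cftr at 6 positions, 3 of them overlapping, in Aqp5 at 2 and in Wfdc2 at 1, and in 32.7% of all promoters. Gkn3 held no GC box but 1 GATA motif TGATAA, 55 to 50 bases before the start, which 7.94% of all promoters hold. Aqp5 held 1 E-box CACGTG, 87 to 82 bases before the start, found in 6.02% of all promoters. The TCF/LEF motif CTTTGAT, the cAMP response element TGACGTCA and its shorter form TGACGT, the forkhead motif TGTTTAC, the TATA box TATAAA, the GATA motif AGATAA and the CCAAT box CCAAT are not in these 4 windows, and occur in 3.21%, 1.55%, 6.47%, 3.17%, 12.4%, 9.99% and 33.8% of all promoters in that order. Such matches are letters in a window and say nothing of binding.

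Tff2, the trefoil peptide that names the metaplasia, was abundant in both fractions. Signals were 247288 and 369400 on the CD44+ arrays, against 312493 and 158304 on the CD44- arrays. Relative to the array they were 9.99 and 9.55 in CD44+ cells and 9.59 and 8.23 in CD44- cells, so the first CD44- array lay between the CD44+ arrays. The difference of 0.86 ± 0.56 (SE, 1.81-fold, 95% interval -0.44 to 2.15) did not pass limma's test, with an adjusted p of 0.731. Leaving out CD44- replicate 1 gave 1.54 and leaving out CD44- replicate 2 gave 0.18, so the size rests on the second CD44- array.

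Clu (clusterin), a secreted chaperone, was at 10.20 and 9.35 in CD44+ cells and at 9.20 and 8.65 in CD44- cells, from signals of 287675 and 320848 against 238959 and 211848. The lowest CD44+ level was only slightly above the highest CD44- level. The difference was 0.85 ± 0.50 (SE, 1.80-fold, 95% interval -0.31 to 2.01, adjusted p = 0.687 by limma). With CD44+ replicate 1 left out the difference came to 0.42, and with CD44+ replicate 2 left out it came to 1.28. The raw signals of Tff2 and Clu reached 51.4% and 46.8% of the scanner's saturation value on their brightest array.

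Wfdc2, a secreted protein with whey acidic protein domains that is also called HE4, was at 7.61 and 7.91 in CD44+ cells and at 7.42 and 7.61 in CD44- cells. The second CD44- array and the first CD44+ array met at the same rounded level, although the groups did not overlap by the unrounded values. The difference was 0.25 ± 0.44 (SE, 1.19-fold, 95% interval -0.78 to 1.27, adjusted p = 0.876 by limma). Wfdc2 had the smallest pooled SD of the 7, at 0.18, at percentile 11.0 of all genes tested.

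Dmbt1, a scavenger receptor cysteine-rich glycoprotein of mucosal surfaces, was at 7.09 and 7.33 in CD44+ cells and at 6.74 and 7.37 in CD44- cells. The CD44+ arrays lay inside the range of the CD44- arrays. The difference was 0.15 ± 0.47 (SE, 1.11-fold, 95% interval -0.92 to 1.23, adjusted p = 0.929 by limma). The upper limits of the intervals, 1.27 for Wfdc2 and 1.23 for Dmbt1, lie below the difference of 2.35 measured for Gkn3. The interval of Gkn3 itself began at 1.25, below the upper limit for Wfdc2. Whether the genes differ from each other was not tested.

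**Figure D3:**
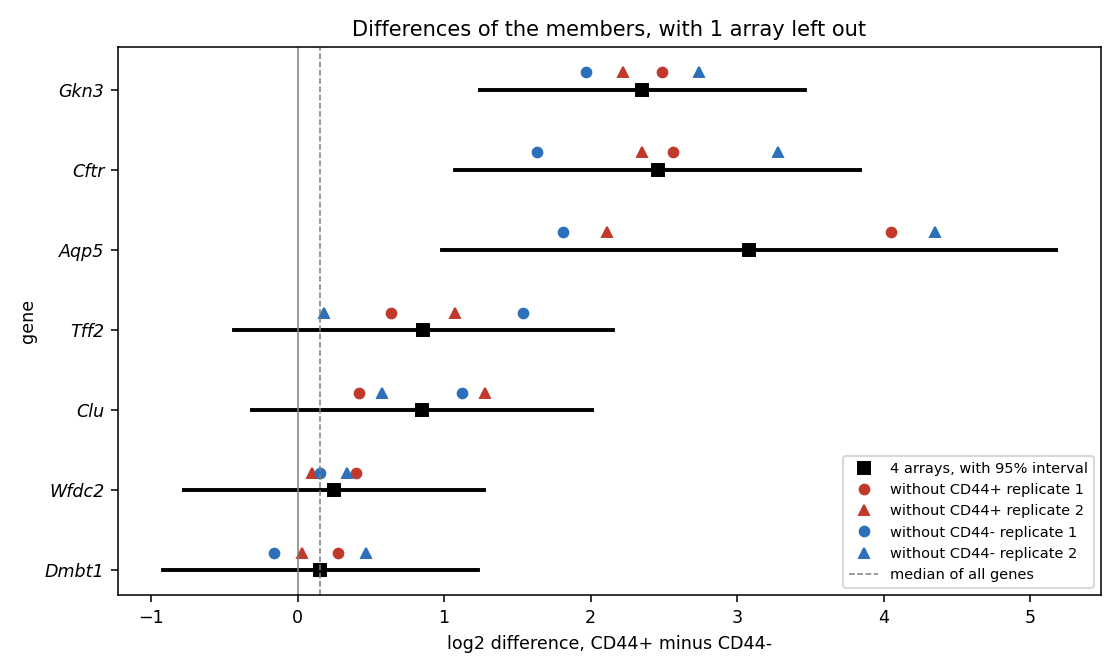
Log2 difference of each of the 7 genes, CD44+ minus CD44- (horizontal axis), with a square and a 95% interval for the fit on 4 arrays and coloured marks for the fits with 1 array left out. Gkn3, Cftr and Aqp5 lie above 0 with each array left out, and the dashed line marks the median of all genes at 0.16.

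Ratios between 2 of the 7 genes on the same array do not depend on how arrays are scaled, and 21 such pairs were compared. Gkn3 over Wfdc2 was 1.50 and 1.47 on the CD44+ arrays, against -0.91 and -0.33 on the CD44- arrays, in log2 units. Gkn3 over Dmbt1 was 2.02 and 2.05 against -0.23 and -0.09. Cftr over Wfdc2 was -2.95 and -3.04 against -5.94 and -4.48. These ratios were close on the 2 CD44+ arrays and lower on both CD44- arrays. The groups did not overlap for 8 of the 21 pairs, namely Gkn3, Cftr and Aqp5 each over Wfdc2 and over Dmbt1, Gkn3 over Clu, and Tff2 over Gkn3, which was lower in CD44+ cells. With 2 arrays per group an exact two-sided permutation test cannot go below p = 0.333, the value of each of these 8. A lack of overlap in either direction has that same probability if the arrays are exchangeable. The 21 pairs share the same 7 genes, and no share over all gene pairs is given here, so the count is a description only. Gkn3 over Cftr differed by -0.10 between the groups, at 4.46 and 4.51 in CD44+ cells and 5.03 and 4.15 in CD44- cells, and Wfdc2 over Dmbt1 by 0.09.

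The 7 genes also varied within the groups. In levels relative to the array, Gkn3, Aqp5, Cftr, Wfdc2 and Dmbt1 were higher on the second array in CD44+ and in CD44- cells. For Aqp5 the gaps were 1.94 and 2.54. Tff2 and Clu were lower on the second array in both groups, with gaps of -0.44 and -1.36 for Tff2. Before scaling, the signals of Tff2 and Clu were higher on the second CD44+ array and lower on the second CD44- array. For Tff2 they were 247288 and 369400 on the CD44+ arrays, against 312493 and 158304 on the CD44- arrays. The sign of the gap in scaled level was the same in both groups for 7 of 7 genes and for 60.7% of all genes tested.

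With each array scaled to the mean log2 level of the 8 epithelial markers, a setting chosen after the data were seen, the differences were 1.71 for Gkn3, 1.82 for Cftr and 2.44 for Aqp5. Relative to those markers Gkn3 stood at 3.05 and 3.74 in CD44+ cells and 0.87 and 2.50 in CD44- cells, and Cftr at -1.41 and -0.77 against -4.15 and -1.66, in each case without overlap. Aqp5 stood at -3.06 and -0.69 against -6.02 and -2.62, which overlap. Tff2 and Clu differed by 0.22 and 0.21, Wfdc2 by -0.39 and Dmbt1 by -0.48 on this scale, on which the median of all genes moved to -0.48. None of the 7 passed limma's test under it, with a smallest adjusted p of 0.191.

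Genes that build and fill mucous granules were compared next, from a list of 16 of which 14 were tested. None passed over all genes by limma. At an unadjusted p under 0.05 there was 1 on each side, beside 2.86% of all genes higher and 7.9% lower. Of the 14, 11 lay above 0, and the median was 0.50, or -0.14 scaled to epithelial markers. The groups did not overlap for 4 with CD44+ cells higher and for 1 with CD44+ cells lower, beside 22.4% and 17.2% of all genes. Agr2, a disulfide isomerase needed for mucin folding, was at 8.90 and 9.0 in CD44+ cells and at 7.98 and 7.36 in CD44- cells (1.28 ± 0.46, adjusted p = 0.330). Spdef, a transcription factor of mucous secretory cells, was at 3.60 and 4.0 against 2.78 and 2.98 (0.92 ± 0.45, adjusted p = 0.557). A4gnt, the enzyme that caps the glycans of Muc6, was at -2.96 and -1.57 against -3.63 and -1.97, which overlap. The mucin gene Muc5b was on the other side, at 0.63 and -0.04 in CD44+ cells and 1.77 and 2.41 in CD44- cells (-1.80 ± 0.49, adjusted p = 0.193).

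Other genes tied to metaplasia and repair had no shared direction. Of 14 tested, 8 lay above 0, beside 60.6% of all genes, and none passed. At an unadjusted p under 0.05 there were 4 on each side, beside 2.86% of all genes higher and 7.9% lower. The groups did not overlap for 6 with CD44+ cells higher and 4 with CD44+ cells lower, beside 22.4% and 17.2% of all genes. Cd44, on which the cells were sorted, is in this list and is counted on the higher side in both. The median was 0.20, but -0.03 without CD44+ replicate 2, -0.01 with quantile normalization and -0.44 scaled to epithelial markers. Lcn2 (lipocalin 2), an iron-siderophore binding protein of mucosal defence, was at -2.10 and -2.49 in CD44+ cells and at -1.30 and -0.17 in CD44- cells (-1.56 ± 0.53, adjusted p = 0.298). Sox9, a transcription factor of progenitor cells, differed by 0.03 ± 0.47 by its brightest probe, and its groups overlapped. Other tested Sox9 probes differed by -0.51 and 0.45.

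Genes of the neighbouring gland cells were compared in the same way. Of 7 surface mucous cell genes tested, 2 lay above 0 and the median was -2.24, although none passed over all genes. At an unadjusted p under 0.05, 4 of them were lower, beside 7.9% of all genes. Tff1 and Gkn2, secreted by surface mucous cells and named after their values were seen, differed by 0.56 ± 0.53 and 0.45 ± 0.55 with overlapping groups. The surface mucin Muc5ac was at 0.26 and -1.02 in CD44+ cells and at 5.78 and 2.77 in CD44- cells by its brighter probe (-4.65 ± 0.93, adjusted p = 0.105), while a second Muc5ac probe differed by 0.22. Psca, a surface antigen of the stomach, was at -0.75 and -0.41 in CD44+ cells and at 5.36 and 2.59 in CD44- cells (-4.55 ± 0.82, adjusted p = 0.0828). Among 6 chief cell genes the median was -1.70, and among 7 parietal cell genes -0.70, with none called in either list. At an unadjusted p under 0.05, 2 chief and 2 parietal cell genes were lower and 1 parietal cell gene was higher. The chief cell genes were Pga5 (-3.05 ± 0.71) and Cpb1 (-1.72 ± 0.74). The parietal cell genes were Atp4b (-5.32 ± 1.07, adjusted p = 0.106 by limma) and Kcne2, and Kcnq1 on the higher side (1.32 ± 0.45). Kcne2 was at least 7.56-fold lower, a lower limit because neither CD44+ array had it well above background. Of all genes, 7.9% were lower and 2.86% higher at that level. The parietal median was the value of Aqp4 by its brightest probe, while other tested Aqp4 probes differed by -3.45 and -3.41. The medians of these lists depended on the setting. With probes well above background on all 4 arrays they were -0.12 for surface mucous, -0.69 for chief and 0.07 for parietal cell genes, and with normexp background correction -0.33, -1.01 and 0.00 in the same order. With the mean of all probes of a gene they were -2.22, -1.70 and -1.11 in that order. With 1 array left out, the surface mucous median lay between -3.63 (without CD44- replicate 2) and -0.85 (without CD44- replicate 1), and the chief cell median between -3.31 (without CD44- replicate 1) and -0.14 (without CD44- replicate 2). Of 12 ion and water transporters that could work beside Cftr and Aqp5, each by its brightest probe, 6 lay above 0. Their median was -0.04, and on these probes none passed even at an unadjusted p under 0.05. The dimmer Aqp4 probes at -3.45 and -3.41 had unadjusted p = 0.000207 and 0.000791 by limma on all probes without the filter. Their adjusted p values were 0.120 and 0.222. Aqp3, a water and glycerol channel, had the smallest p of this list by the brightest probes. It was at 2.80 and 1.85 in CD44+ cells and at 5.77 and 2.77 in CD44- cells, which overlap (-1.94 ± 0.90, adjusted p = 0.517 by limma). Slc12a2, which loads secretory cells with chloride, was at 1.33 and 2.56 in CD44+ cells and at 0.28 and 1.20 in CD44- cells (1.20 ± 0.58, adjusted p = 0.550).

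**Figure D4:**
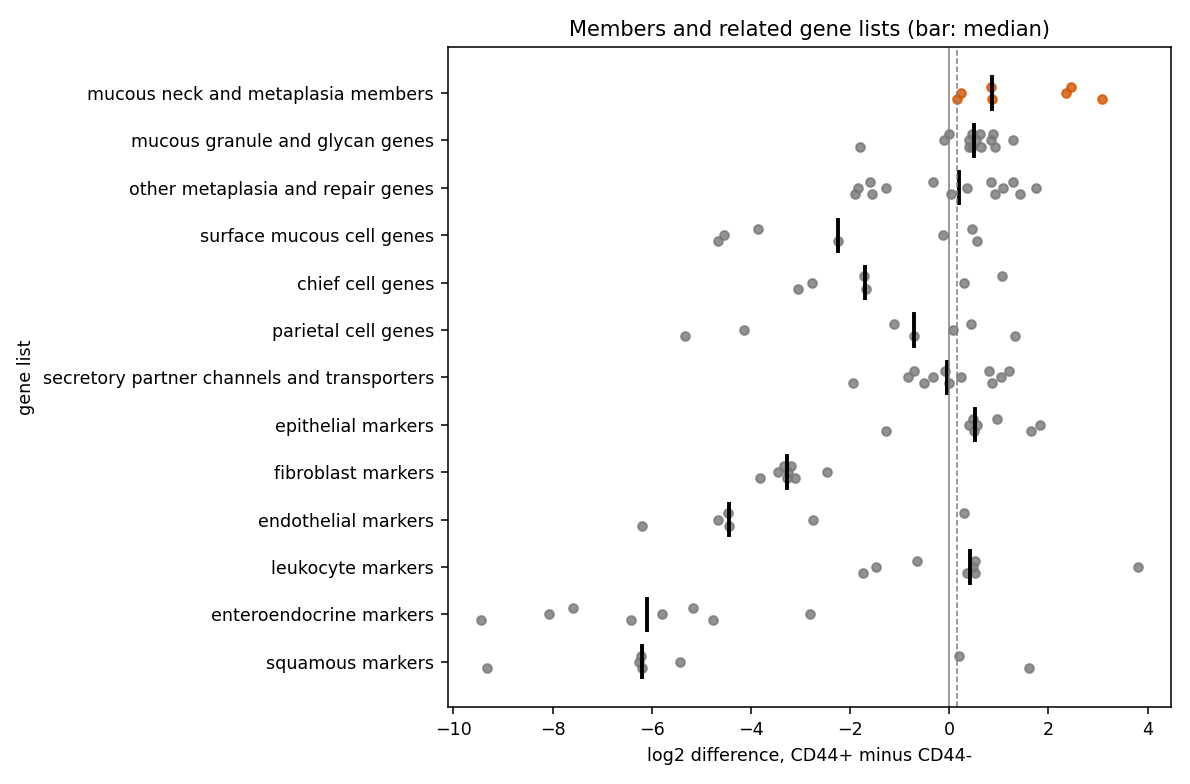
Log2 differences, CD44+ minus CD44- (horizontal axis), of the neck and metaplasia genes (orange) and of the genes in 12 other lists (grey), with a black bar at each list's median and a dashed line at the median of all genes. The neck and metaplasia genes all lie above 0 with a median of 0.86. The surface mucous, chief and parietal cell lists have medians of -2.24, -1.70 and -0.70. The parietal one is 0.07 with probes well above background on all 4 arrays and -1.11 with the mean of all probes of a gene.

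Among genes outside the set, the 5 whose centred levels over the 4 arrays lay nearest to the mean centred levels of the 7 were Ap3b2, Ccna1, Specc1, Noxo1 and Tnfsf9, at root mean square distances of 0.016 to 0.084 log2 units. Noxo1, an organizer subunit of an epithelial NADPH oxidase, was at 6.03 and 6.11 in CD44+ cells and at 4.38 and 4.99 in CD44- cells. None of the 5 passed limma's test over all genes. Their differences were 1.36 to 1.42, while each of the 7 differed by 2.35 or more or by 0.86 or less. Nearness to the mean of the 7 is therefore not nearness to a typical gene of the set.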

How the data were processed

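Each array held 1 sample and 1 dye (Cy3). From each sample 25 ng of RNA was amplified and 0.2 ug of the product labelled, per the labels' protocols. The authors deposited 1 scanner table per array, written by Agilent Feature Extraction 10.1.1.1 per the file headers and version 9.5 per the submitters' processing notes. Its processed signal is a background-subtracted intensity per the file headers, and its values are not scaled between arrays. The authors' deposited value table, undescribed in the labels, holds a linear ratio of each probe to its median over the arrays. It served as an alternative.

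Control spots and outlier spots (109 to 133 per array) were left out, and the log2 values of spots of 1 probe were averaged. Each array's 75th percentile over the 41174 probes was subtracted. Probes were named through RefSeq accessions without version (GRCm38.p6 table, 24375 probes for 17016 genes). A probe was kept if well above background on both arrays of a group, and the brightest probe stood for a gene. Limma 3.58.1 (lmFit, eBayes, R 4.3.3) compared groups without covariates, leaving 2 residual and adding 6.01 prior degrees of freedom. The procedure was checked on simulated data. The number of arrays limits the precision. The genes, lists, named genes (all 8 of the set, up to 3 per other list by smallest p, Cd44, Muc5ac, A4gnt, Sox9 and the 5 nearest patterns) and tests were chosen with earlier results of these data known. Alternatives covered scaling, background correction, filter, probe summary, variance model, replicate block and each array left out. RefSeq promoters (GRCm38.p6) were found for 5 of the 8 genes. One gene that this rule names is not reported here.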

Additional observations from a re-analysis of the deposited data

How the results depend on the processing

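In 16 alternative settings none of Tff2, Clu, Wfdc2 and Dmbt1 passed limma's test. Gkn3, Cftr and Aqp5 kept a positive difference in every setting, from 1.71 to 2.74, 1.63 to 3.28 and 1.81 to 4.35. All 3 passed with median scaling (adjusted p = 0.0136, 0.0165 and 0.0165), normexp background correction, the authors' value table, the replicate number as a block and without CD44- replicate 2. Adjusted p values over the settings ran from 0.000144 to 0.470 for Gkn3, 5.97e-05 to 0.693 for Cftr and 1.28e-07 to 0.509 for Aqp5. Thus 3 of the 7 genes passed in these 5 settings and 0 in the others. With 1 array left out the count ran from 0 to 3, and it was 3 only without CD44- replicate 2.

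The number of genes called in all was 748 with median scaling, 6 with quantile normalization, 540 with normexp, 753 from the authors' table, 24 with no filter, 130 with an intensity trend, 1829 with the replicate block, 772 scaled to epithelial markers and 2 to 1569 with 1 array left out. The median difference of the 7 was 0.47 with quantile normalization, 0.22 scaled to epithelial markers, and 0.58 to 1.54 with 1 array left out. Dmbt1 turned to -0.11 with quantile normalization, -0.48 scaled to epithelial markers and -0.16 without CD44- replicate 1 (range -0.16 to 0.47), and Wfdc2 to -0.39 scaled to epithelial markers. The cause was not tested. The median of all genes was 0.26 with median scaling and -0.48 scaled to epithelial markers, beside 0.16. Scaling to epithelial markers and a percentile over all spots were chosen after seeing the data. Replicate numbers share only a number in the labels. Deviations of same-numbered arrays correlated at 0.347 over 21045 genes. With the block, 1829 genes and 3 of the 7 passed. All arrays lay on 1 slide and 1 scan, so no slide block was run.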
